A study of Homo sapiens with 4 samples.

Results

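The annexins are calcium-dependent phospholipid-binding proteins, and FPR1 and FPR2 are the formyl peptide receptors that take annexin A1 among their ligands. The 10 genes described here, ANXA1, ANXA2, ANXA3, ANXA4, ANXA5, ANXA6, ANXA10, ANXA11, FPR1 and FPR2, were picked by symbol from the 57905 genes of a count table, and the pick was made with earlier results of the same libraries known, so that their levels and ratios are given as a description with no test. The table holds 4 RNA-seq libraries of A549, a human lung adenocarcinoma cell line, with 1 library per condition. The study asked how DCBLD2, a transmembrane receptor-like protein, acts on the migration of these cells. In the first pair of lines, lentivirus carried either the human DCBLD2 coding sequence or no insert (empty vector) in pLV-EF1-MCS-IRES-Bsd, where the EF1 promoter drives the insert and the lines were held under blasticidin. In the other pair, the lines carried a scramble control (sc) or a hairpin against DCBLD2 (shDCBLD2), the hairpin vector being pLV-H1-EF1α-puro. Which hairpin was sequenced, and whether any line was a single clone, is not given in the sources used here. The labels name no further treatment.

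Library totals ran from 16601633 to 21537283 counts, a 1.30-fold span, and levels are given as CPM, the counts in 1000000 of a library total after TMM scaling. The targeted gene was read first. DCBLD2 stood at 504 CPM in sc, 197 CPM in shDCBLD2, 434 CPM in empty vector, and at 242 CPM in the fourth, labelled DCBLD2 overexpression, hereafter the overexpression-labelled library. It was thus lower in shDCBLD2 than in sc (log2 ratio -1.35, 95% interval -1.40 to -1.30), and also lower in the overexpression-labelled library than in empty vector (log2 ratio -0.84, -0.90 to -0.79), which goes against that label. No direction in that library can therefore be read as that of more DCBLD2. Every interval is an exact binomial one and covers counting error alone, since no condition was repeated. Each ratio compares 2 libraries, not 2 conditions.

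Annexins share a core of repeats that binds membrane phospholipid when calcium rises, and differ in their short N-terminal ends, which carry the sites for partner proteins. Annexin A1 is known as a mediator of glucocorticoid action that dampens neutrophil recruitment through formyl peptide receptors, while annexin A2 pairs with S100A10 at the plasma membrane and serves there as a platform for plasminogen activation. FPR1 and FPR2 are G protein-coupled receptors best known on neutrophils and monocytes, where they sense bacterial and mitochondrial formylated peptides, and both have also been described on epithelial cells.

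The promoters of the 3 members that passed an expression filter and were at least 2-fold lower than in empty vector in the overexpression-labelled library, FPR1, ANXA10 and ANXA1, are shown with that of ANXA2, the most abundant member, because they differ in base composition. Each runs from 250 bases before to 50 bases after the RefSeq start, 5′ to 3′ on the gene's own strand of GRCh38.p14. Capitals mark the letters TATAAA and TGANTCA. FPR1 is read from chr19:51751829-51752128 on the minus strand, ANXA10 from chr4:168092287-168092586 on the plus strand, ANXA1 from chr9:73151615-73151914 on the plus strand and ANXA2 from chr15:60397937-60398236 on the minus strand. The windows of ANXA1 and ANXA2 were added after their values had been seen.
FPR1: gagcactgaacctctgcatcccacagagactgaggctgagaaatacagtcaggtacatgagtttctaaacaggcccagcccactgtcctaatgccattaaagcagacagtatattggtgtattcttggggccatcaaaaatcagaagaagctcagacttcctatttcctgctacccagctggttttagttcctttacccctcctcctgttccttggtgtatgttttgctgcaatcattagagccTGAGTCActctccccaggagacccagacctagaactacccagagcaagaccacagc
ANXA10: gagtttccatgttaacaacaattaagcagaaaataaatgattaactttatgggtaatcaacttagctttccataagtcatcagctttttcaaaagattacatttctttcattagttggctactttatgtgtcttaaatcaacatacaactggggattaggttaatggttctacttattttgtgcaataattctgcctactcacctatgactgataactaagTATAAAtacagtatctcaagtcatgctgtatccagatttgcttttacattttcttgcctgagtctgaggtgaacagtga
ANXA1: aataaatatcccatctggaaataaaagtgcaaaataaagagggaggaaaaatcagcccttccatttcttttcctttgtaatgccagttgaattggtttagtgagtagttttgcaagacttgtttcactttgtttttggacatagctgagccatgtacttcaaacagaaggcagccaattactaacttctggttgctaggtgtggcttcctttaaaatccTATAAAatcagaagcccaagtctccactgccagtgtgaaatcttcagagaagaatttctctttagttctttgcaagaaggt
ANXA2: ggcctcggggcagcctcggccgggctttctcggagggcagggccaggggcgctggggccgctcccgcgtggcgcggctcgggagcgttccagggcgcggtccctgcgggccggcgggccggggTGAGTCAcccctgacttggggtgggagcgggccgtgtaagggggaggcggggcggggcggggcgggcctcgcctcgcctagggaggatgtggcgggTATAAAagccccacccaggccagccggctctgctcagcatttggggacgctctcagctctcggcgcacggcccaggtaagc
The FPR1, ANXA10 and ANXA1 windows hold 0 CpG dinucleotides, whereas the ANXA2 window holds 32. All 10 genes had at least 1 RefSeq window, 15 windows in all. ANXA3 held 25 CpG, ANXA5 held 36, the windows of ANXA4 held 27 and 44, those of ANXA6 held 10 and 25, those of ANXA11 held 7, 12 and 30, and those of FPR2 held 4 and 5. Over all 35116 promoter windows the median was 14 CpG, and 3.96% had none. TATAAA, searched on both strands, first matched at position -31 from the start in ANXA1 and in ANXA2, at -29 in ANXA10 and at -61 in a window of ANXA11, and 11.5% of all windows held it. TGANTCA, likewise on both strands, first matched at -127 in ANXA2 and at -6 in FPR1, and 7.71% of all windows held it. These are matches of letters and not measured binding sites.

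Per unit of transcript length, on the FPKM scale, ANXA2 was the most abundant member in each of the 4 libraries, at 359 FPKM in sc, 331 in shDCBLD2, 329.7 in empty vector and 203 in the overexpression-labelled library. ANXA1 came next in 3 libraries, at 181, 141 and 142 FPKM, but in the overexpression-labelled library it stood at 64.5 FPKM, below ANXA5 at 89.8 FPKM. ANXA5, which binds phosphatidylserine and is used as a probe of dying cells, was at 84.3 to 85.3 FPKM in the other 3 libraries. ANXA4, ANXA11 and ANXA6 lay between 21.0 and 42.0 FPKM. With no replicates their order cannot be set against a spread, and it was not the same across libraries: ANXA4 stood above ANXA6 in sc, at 38.0 against 22.3 FPKM, and just below it in empty vector, at 25.8 against 27.0 FPKM. ANXA3 lay between 5.61 and 10.8 FPKM. ANXA10 ran from 0.5 to 12.8 FPKM and FPR1 from 0.12 to 5.43 FPKM, both highest in sc, and FPR2 was at 0.18 FPKM or less. ANXA10 was above ANXA3 in sc, at 12.8 against 8.74 FPKM, and in shDCBLD2, at 10.45 against 10.03 FPKM.

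**Figure D1:**
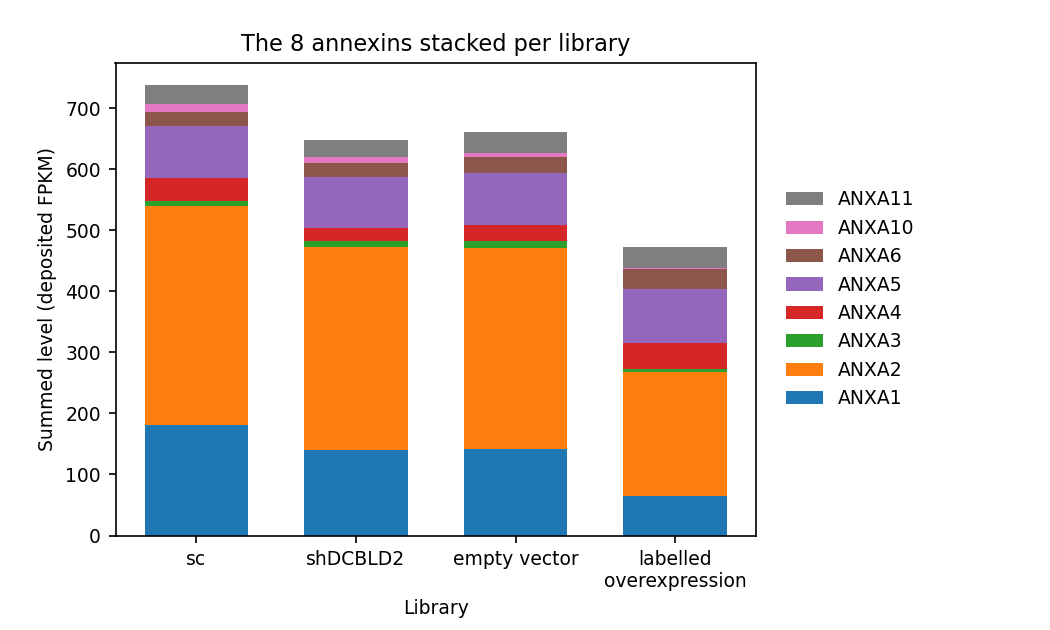
Stacked FPKM of the 8 annexins in each of the 4 libraries (1 library per condition, so no error bars). The stack is lowest in the overexpression-labelled library, at 473 FPKM against 649 to 738 in the others, and its ANXA1 and ANXA2 segments are visibly smaller, at 64.5 and 203 FPKM.

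Summed over the 8 annexins, the level was 738 FPKM in sc, 649 in shDCBLD2, 661 in empty vector and 473 in the overexpression-labelled library. ANXA2 made up 42.9% of this sum in the overexpression-labelled library and 48.7% to 51.1% in the others. ANXA1 made up 13.6% there and 21.5% to 24.5% elsewhere, while the share of ANXA5 was 19.0% there and 11.6% to 13.0% elsewhere. The ANXA2 to ANXA1 ratio, in FPKM, was 1.99 in sc and 3.14 in the overexpression-labelled library. In counts, the 8 annexins together took 0.509% of the sc library and 0.329% of the overexpression-labelled library, where their summed count was lower than in empty vector by a log2 ratio of -0.50 (-0.51 to -0.48).

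The overexpression-labelled library was first set against empty vector. A gene was called where its ratio reached 2-fold and its 95% interval left out no change, among the 13966 genes with a mean of at least 1 CPM. 9 of the 10 members were in that set, and FPR2, with a mean of 0.313 CPM, was not. FPR1 and ANXA10 passed this filter on their levels in the other 3 libraries. Of the 9, 3 were called lower (FPR1, ANXA10 and ANXA1) and 0 called higher, against 5.29% of all genes tested called lower and 6.39% called higher. As these values chose the genes, nothing is read from the 3. The median log2 ratio was -0.72 over the 9 members and -0.04 over all genes tested.

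FPR1, the high-affinity receptor for formylated peptides, had 269 counts in sc (13.8 CPM), 239 in shDCBLD2 (11.1 CPM), 158 in empty vector (8.61 CPM) and 5 in the overexpression-labelled library (0.303 CPM, 95% interval 0.098 to 0.707). The last library thus stood far below the other 3. Its ratio to empty vector was 20.9-fold lower (log2 -4.38, -6.47 to -3.58), and 0 of the 13966 genes tested had a lower ratio. The 5 counts are too few to place its level closely. In bulk RNA of this kind, fewer cells that express a gene and less of its RNA per cell cannot be told apart. FPR1 is listed at chromosome 19, 52248425 to 52307363 on the minus strand, a span that takes in the whole of FPR2 on the opposite strand and 8948 bases of FPR3, the remaining gene of the family, which had 1 count or fewer in each library. Whether reads were counted by strand is not given in the sources used here.

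FPR2, the receptor most often linked to annexin A1 and to lipoxin A4, was barely detected. It had 13 counts in sc (0.665 CPM), 8 in shDCBLD2 (0.371 CPM), 4 in empty vector (0.218 CPM) and 0 in the overexpression-labelled library. The count of 0 there was set at a floor of 3 counts, or 0.182 CPM, and its 95% interval reached up to 0.223 CPM. The 95% interval of the log2 ratio to empty vector reached up to 0.75, so that a difference from empty vector could not be detected at this depth. FPR2 was below the expression filter, so that no ratio of it could be called in any comparison. Against sc, with its 13 counts, the overexpression-labelled library was 3.66-fold lower with its 0 set at 3 counts and the 13 taken as exact. The interval of the log2 ratio, which covers the error of both counts, reached up to -1.36, or 2.57-fold lower.

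ANXA10, an annexin known from gastric epithelium, had the second pattern of this kind. It had 443 counts in sc (22.6 CPM), 408 in shDCBLD2 (18.9 CPM), 235 in empty vector (12.8 CPM) and 15 in the overexpression-labelled library (0.909 CPM). The ratio to empty vector was 12.6-fold lower (log2 -3.66, -4.68 to -3.06), and 1 of the 13966 genes tested had a lower one, namely FPR1. ANXA10 lies on chromosome 4 at 169013666 to 169108841, plus strand, and the antisense entry that overlaps it had 0 counts in every library.

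ANXA1, the glucocorticoid-induced annexin, is expressed at a level where counting error is small. It had 15745 counts in sc (805 CPM), 13839 in shDCBLD2 (642 CPM), 12149 in empty vector (662 CPM) and 4885 in the overexpression-labelled library (296 CPM). The ratio of that library to empty vector was -1.16 on the log2 scale (-1.21 to -1.11), and 412 genes had a lower one. shDCBLD2 and empty vector thus lay close to each other, sc somewhat above them, and the overexpression-labelled library well below all 3.

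**Figure D2:**
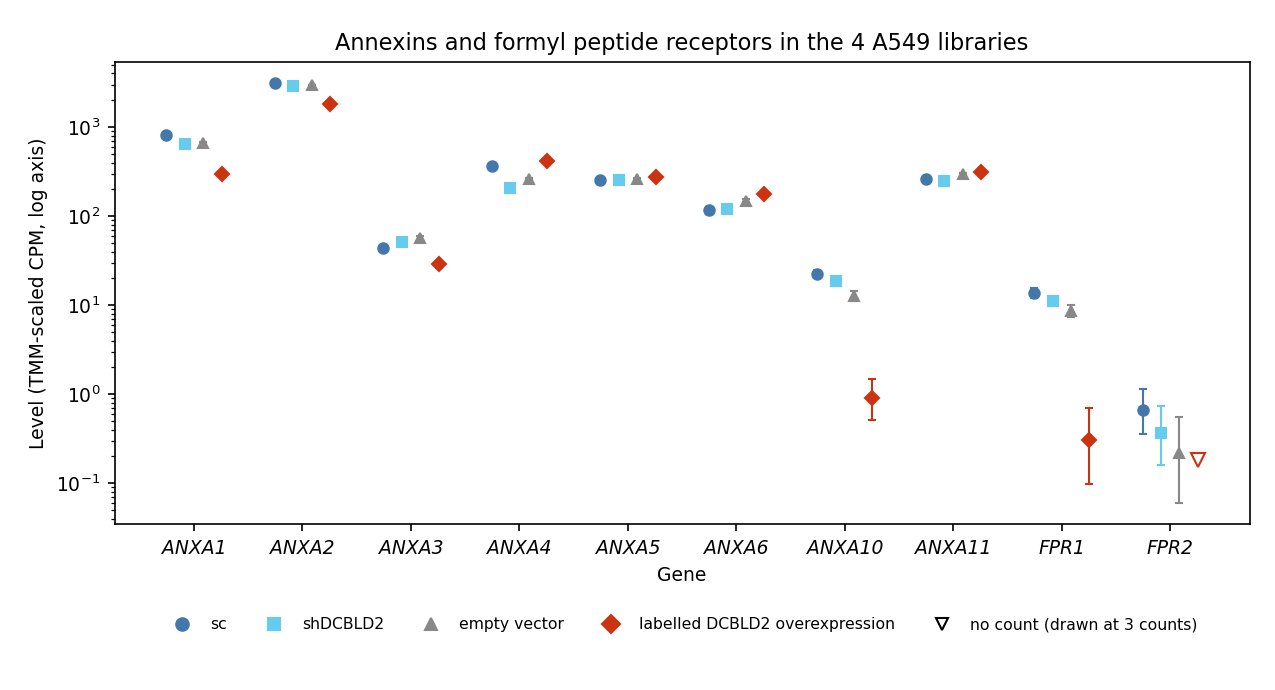
CPM on a log axis for the 10 genes in the 4 libraries, 1 point per library, with exact 95% intervals of the count where these are wider than the point. An open triangle marks a count of 0, drawn at 3 counts. FPR1 and ANXA10 stand at 0.303 and 0.909 CPM in the overexpression-labelled library, while ANXA5 runs level.

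ANXA2 and ANXA3 were lower in the overexpression-labelled library than in the other 3, without reaching 2-fold. ANXA2 stood at 3093 CPM in sc, 2919 in shDCBLD2, 2966 in empty vector and 1800.1 in the overexpression-labelled library, a log2 ratio to empty vector of -0.72 (-0.74 to -0.70). Its processed pseudogene ANXA2P2 can share reads with it, so that the split between them is uncertain. ANXA2P2 had 4.70% to 5.56% as many counts as ANXA2 across the libraries, and ANXA2 summed with its pseudogenes gave the same ratio, -0.72 (-0.74 to -0.70). ANXA3, a small annexin of neutrophil granules and many carcinomas, stood at 43.7 CPM in sc, 51.2 in shDCBLD2, 56.1 in empty vector and 28.8 in the overexpression-labelled library. Its log2 ratio to empty vector was -0.96 (-1.12 to -0.80), just outside the threshold, with ANXA1 at -1.16 the nearest member inside it.

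ANXA4 had the opposite sign. This annexin of epithelial secretory and apical membranes stood at 369 CPM in sc, 209 in shDCBLD2, 261 in empty vector and 420.3 in the overexpression-labelled library. The log2 ratio of the last to empty vector was 0.69 (0.63 to 0.74), which is under 2-fold. It was also nearer to sc than to empty vector, with a log2 ratio to sc of 0.19 (0.14 to 0.23). ANXA4 overlaps AAK1 on the opposite strand over 29925 bases, and AAK1 had 131 to 312 counts against 4502 to 7226 for ANXA4.

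ANXA5, ANXA6 and ANXA11 differed least. ANXA5 stood at 253 CPM in sc, 255 in shDCBLD2, 264 in empty vector and 274 in the overexpression-labelled library, and its log2 ratio to empty vector of 0.06 had an interval of -0.00 to 0.12. Its highest and lowest libraries were 0.12 apart on the log2 scale, and 99.4% of all genes tested spanned more. ANXA11, which carries a long proline-rich end and links RNA granules to lysosomes, stood at 264, 248, 299 and 313 CPM in the same order, with a log2 ratio of 0.07 (0.01 to 0.12). ANXA6, the annexin with a doubled core, stood at 118, 122, 149.6 and 177 CPM, and its ratio was 0.24 (0.17 to 0.32). By the same measure the span over the 4 libraries was 5.09 for FPR1, 4.49 for ANXA10, 1.44 for ANXA1, 1.01 for ANXA4, 0.96 for ANXA3, 0.78 for ANXA2, 0.58 for ANXA6 and 0.33 for ANXA11, beside a median of 0.78 over all genes tested. A wider span than that of FPR1 was seen in 0.695% of them, and a wider one than that of ANXA10 in 1.03%.

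**Figure D3:**
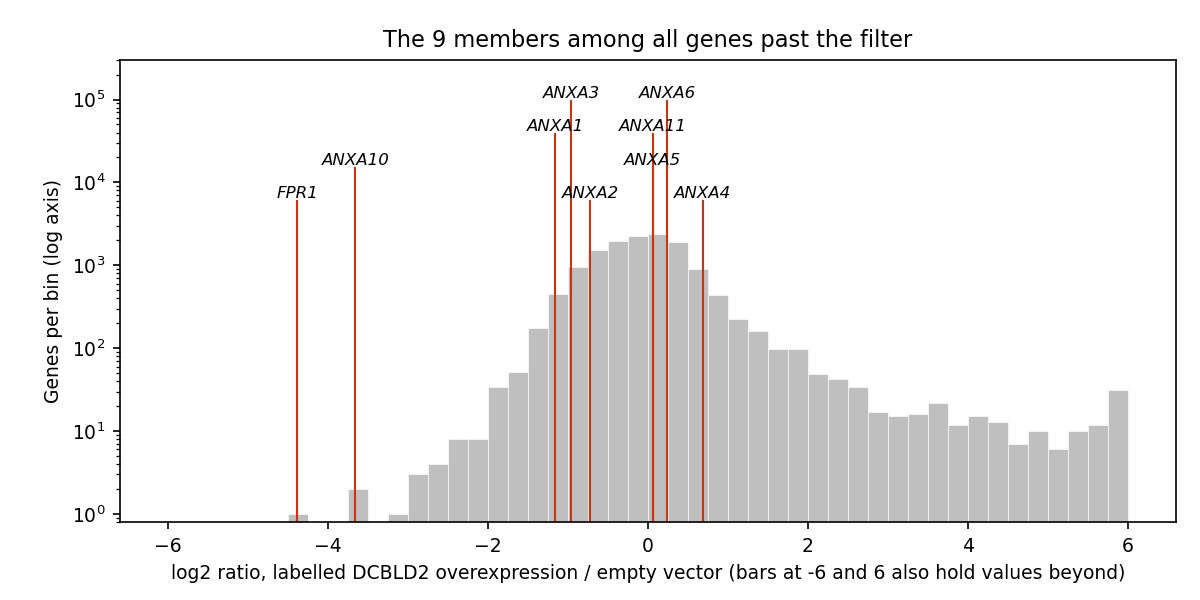
Histogram of the log2 ratio of the overexpression-labelled library to empty vector over the 13966 genes tested (bins of 0.25, genes per bin on a log axis, with the end bins also holding values beyond them), and a line for each of the 9 members tested. FPR1 and ANXA10, at -4.38 and -3.66, stand at the far left end, and the other 7 lie between -1.16 and 0.69.

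In the knockdown pair, shDCBLD2 against sc, 0 of the 9 members tested were called in either direction, while 1.17% of all genes tested were called higher and 5.65% lower. The median log2 ratio was -0.08 over the 9 members and 0.01 over all genes. ANXA4 differed most, with a log2 ratio of -0.82 (-0.88 to -0.77). ANXA1 had a ratio of -0.33 (-0.36 to -0.29), FPR1 of -0.31 (-0.57 to -0.05) and ANXA10 of -0.26 (-0.46 to -0.06). ANXA3 was on the other side, at 0.23 (0.10 to 0.36). ANXA2 and ANXA11, both at -0.08, ANXA6 at 0.04 and ANXA5 at 0.02 differed by little. FPR2, at -0.70, had an interval of -2.32 to 0.54 that spans no change. The ratios of FPR1 and ANXA10 that were so low in the first comparison were thus within a factor of 1.5 here.

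Empty vector and sc are both controls, so that their ratio shows how far the members differ between lines that were given no DCBLD2 construct. 0 of the 9 members were called, against 2.21% of all genes tested called higher and 1.89% called lower, with a median log2 ratio of -0.06 over the members and -0.01 over all genes. ANXA10 and FPR1 were already lower in empty vector than in sc, with log2 ratios of -0.82 (-1.06 to -0.59) and -0.67 (-0.97 to -0.39). ANXA4, at -0.50 (-0.55 to -0.45), and ANXA1, at -0.28 (-0.32 to -0.25), were lower as well. ANXA3, at 0.36 (0.23 to 0.49), ANXA6, at 0.34 (0.26 to 0.42), and ANXA11, at 0.18 (0.13 to 0.24), were higher. For each member but ANXA1, ANXA2 and ANXA4, the ratio between the 2 controls was farther from 0 than that of shDCBLD2 to sc.

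The comparisons share libraries, empty vector being in 2 of them and sc in 2, so each one's values were also taken against the other control. Against sc, the overexpression-labelled library gave log2 ratios of -5.07 for FPR1, -4.48 for ANXA10, -1.44 for ANXA1, -0.78 for ANXA2 and -0.60 for ANXA3. The same 3 members were then called lower, while 2377 of the 13966 genes tested were called in either direction, against 1632 with empty vector. Against empty vector, shDCBLD2 gave 0.36 (0.07 to 0.66) for FPR1 and 0.56 for ANXA10, the sign opposite to that against sc. The direction of FPR1 and ANXA10 in shDCBLD2 therefore depended on the control library used, and that in the overexpression-labelled library did not.

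**Figure D4:**
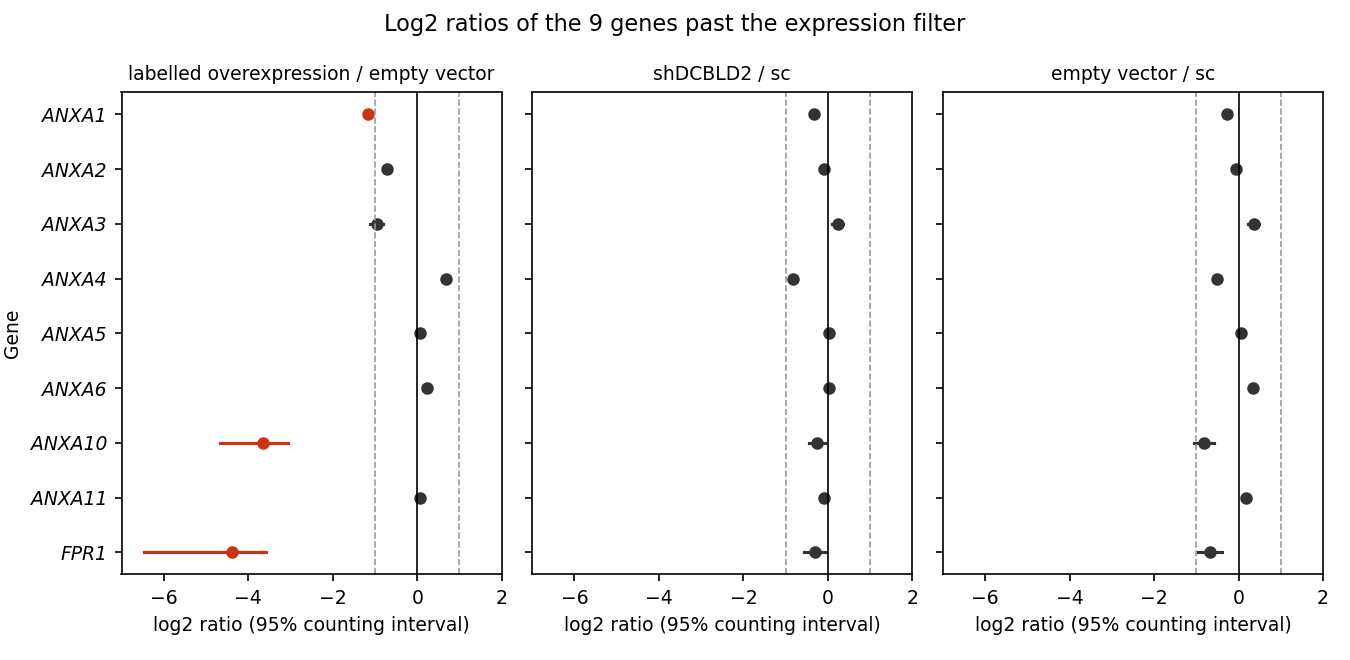
Log2 ratios of the members in the 3 comparisons, with exact 95% intervals of the counts (counting error only). The dashed lines mark 2-fold, and red marks a called gene. In the overexpression-labelled library against empty vector, FPR1, ANXA10 and ANXA1 lie below the lower line, and in the other comparisons no tested member lies outside the lines.

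The genes whose pattern over the 4 libraries was most like that of a member were found by the root mean square difference of log2 levels, each centred on its own mean. With 4 libraries this is a weak measure of likeness. For FPR1 the nearest was ANXA10 (0.282), followed by ITGB3, an integrin beta subunit (0.435), CDH19, a cadherin (0.732), PART1 (0.744) and VCAM1, an adhesion receptor for leukocytes (0.781). For ANXA10 the nearest was ITGB3 (0.252), which stood at 19.5 CPM in sc, 24.9 in shDCBLD2, 15.9 in empty vector and 1.21 in the overexpression-labelled library. For ANXA4 the nearest was CDH23 (0.017), followed by SYT13 (0.018), ALOX12B (0.034) and KRT18, a keratin of simple epithelia (0.037). KRT18 stood at 5168, 2849.9, 3830.2 and 5895 CPM in the same order. ANXA1 was nearest to TTC21B (0.023), ANXA2 to WDR48 (0.018), ANXA5 to MLX (0.013), ANXA6 to PLA2G15 (0.0036), ANXA11 to WIPI2 (0.013) and ANXA3 to RPL7P1, a ribosomal protein pseudogene (0.015).

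The other annexin entries of the table, 8 of 10 past the filter, were looked at in the same way. ANXA13, an annexin of intestinal and kidney epithelium, had 310 counts in sc (15.8 CPM), 53 in shDCBLD2 (2.46 CPM), 71 in empty vector (3.87 CPM) and 354 in the overexpression-labelled library (21.4 CPM). It was called in each comparison: higher in the overexpression-labelled library than in empty vector (log2 2.44, 2.10 to 2.86), lower in shDCBLD2 than in sc (-2.64, -3.14 to -2.27) and lower in empty vector than in sc (-2.01, -2.43 to -1.66). The overexpression-labelled library and sc were thus both high, 0.43 apart on the log2 scale, and the other libraries low, which is the order of the libraries seen for ANXA4. ANXA9 was called lower in shDCBLD2 than in sc (-1.33), at 2.27 against 5.88 CPM. ANXA8 (1.30) and ANXA8L1 (1.05) were called higher there and ANXA8L2, at 0.77, was not, but these entries are near-identical copies whose counts are uncertain one by one. Their summed counts were 742 in sc, 1559 in shDCBLD2, 631 in empty vector and 676 in the overexpression-labelled library, a log2 ratio of shDCBLD2 to sc of 0.93 (0.80 to 1.06). ANXA7 stood at 89.3 to 128 CPM and was called in no comparison. ANXA2R, named as an annexin A2 receptor, was called higher in empty vector than in sc (1.04), at 4.63 against 2.20 CPM.

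**Figure D5:**
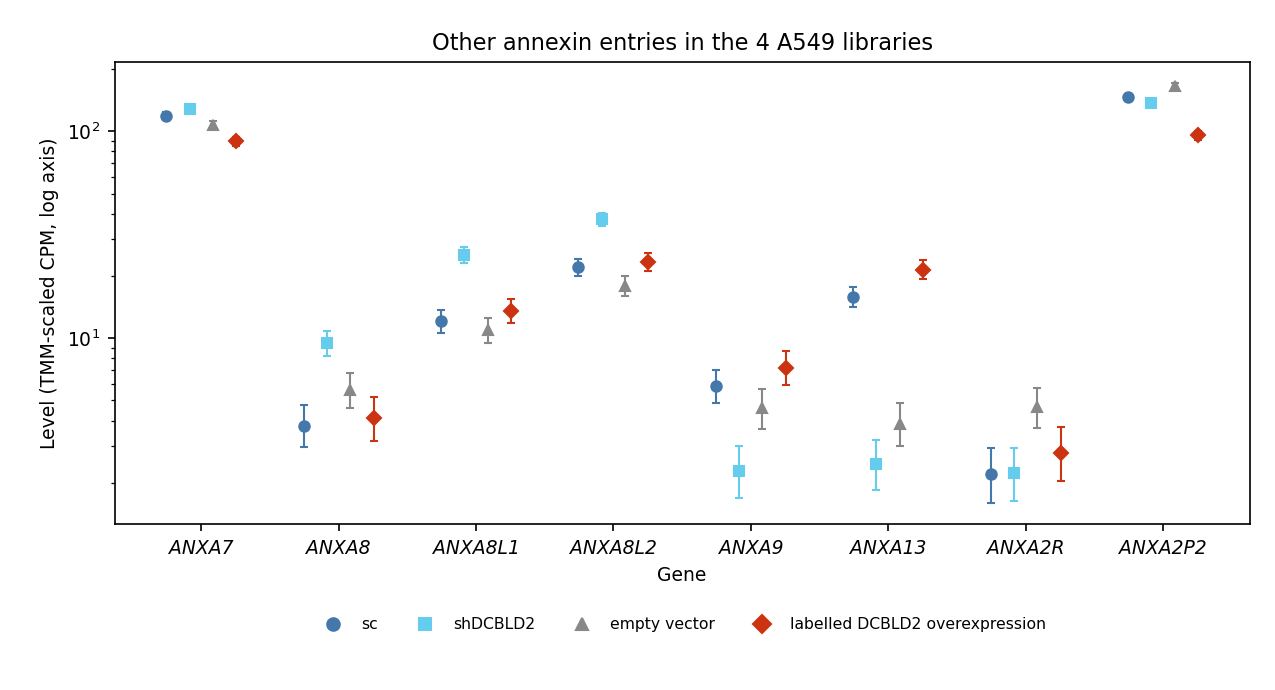
CPM on a log axis for the other annexin entries in the 4 libraries, with exact 95% intervals of the count. ANXA13 is high in sc and in the overexpression-labelled library (15.8 and 21.4 CPM) and low in the other libraries, and the ANXA8 entries are highest in shDCBLD2.

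Among 20 partners of the annexins, namely S100 proteins, plasminogen activators and membrane repair proteins, 18 were tested. In the overexpression-labelled library against empty vector, 1 was called higher, PLAT, the tissue plasminogen activator (log2 1.39, 9.37 CPM in empty vector and 24.8 CPM), and 0 lower, with a median of 0.02. S100A10, the partner of annexin A2, stood at 419.8 CPM in sc, 415 in shDCBLD2, 379 in empty vector and 484 in the overexpression-labelled library (log2 0.35), where ANXA2 was lowest. S100A11, which binds annexin A1, stood at 312, 376, 339 and 404 CPM, so that neither of these S100 partners was low where its annexin was. Other partners were lowest in the overexpression-labelled library, though not called against empty vector. AHNAK stood at 640, 754, 525 and 300 CPM and TRPM7 at 28.7, 33.1, 22.6 and 12.6 CPM in the same order. Of the 18, 9 had a log2 ratio to empty vector above 0. 0 of the 18 were called in shDCBLD2 against sc, with a median of 0.05. In empty vector against sc, 2 were called higher, the membrane repair gene DYSF (1.09) and the urokinase gene PLAU (1.09), and 0 lower, with a median of 0.08.

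Of 24 genes of the formyl peptide receptor axis (ligands, G protein subunits, arrestins and effector enzymes), 13 were tested. In the overexpression-labelled library against empty vector, 3 were called higher and 0 lower, with a median of 0.37. They were SAA1, an acute-phase ligand of FPR2 (log2 1.90, 22 and 79 counts), ALOX5, the 5-lipoxygenase (3.41, 5 and 66 counts), and ARRB1, an arrestin that uncouples such receptors (1.82, 11.9 and 42.5 CPM). In shDCBLD2 against sc, 3 were called lower, with a median of -0.30: ARRB1 (-1.51) together with SAA1 and ALOX5, which had 0 counts in shDCBLD2 and 11 and 10 in sc, at least 4.04-fold and 3.68-fold lower. In empty vector against sc, 0 were called in either direction and the median was 0.23. So the 3 genes higher in the library where FPR1 was lowest were the 3 lower in shDCBLD2, where FPR1 stood at 11.1 CPM. The 2 comparisons have no library in common, but the filter was a mean over all 4 libraries. SAA1 and ALOX5 passed it on their levels in the overexpression-labelled library, which favoured a higher call there. It was also what let them be tested in shDCBLD2 against sc, so nothing is read from their part of this match. ARRB1 was above 1 CPM in each library.

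Among 15 other chemoattractant receptors, 5 were tested, and 1 was called. ACKR3, an atypical receptor that scavenges chemokines, was lower in the overexpression-labelled library than in empty vector (-1.94, 5.57 against 21.7 CPM) and lower in empty vector than in sc (-1.61, 66.5 CPM in sc), and it stood at 117 CPM in shDCBLD2. Of 12 glucocorticoid response genes, the class to which ANXA1 belongs, 10 were tested. TSC22D3 was called higher in the overexpression-labelled library than in empty vector (1.67), CEBPD lower in shDCBLD2 than in sc (-1.25) and KLF9 higher in empty vector than in sc (1.04), with list medians of 0.13, -0.17 and 0.44. The glucocorticoid receptor gene NR3C1 had a log2 ratio of -0.88 (-1.01 to -0.76) in the first comparison, at 44.9 CPM against 83.0 CPM, and was not called.

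ANXA10 is a gastric annexin, so 12 genes of the gastric foveolar type were read beside it, of which 4 were tested. MUC5AC, a gel-forming mucin (log2 2.44), TFF1, a trefoil peptide (1.77), and HNF4A, an endodermal transcription factor (1.07), were called higher in the overexpression-labelled library than in empty vector, and 0 were called lower. ANXA10 was thus at its lowest where MUC5AC was at its highest, 379.6 CPM against 70.0 CPM in empty vector. In shDCBLD2 against sc, TFF1 was called higher (2.31), and MUC5AC (-2.12), HNF4A (-1.30) and SOX2 (-1.21) were called lower. In empty vector against sc, MUC5AC (-1.08) and HNF4A (-1.42) were called lower and 0 called higher. The list medians were 1.42, -1.26 and -0.64.

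The libraries were checked against markers of A549 and of other cells. 7 epithelial markers of A549 were detected in every library. Their summed level was 17555 CPM in sc, 12576 in shDCBLD2, 14851 in empty vector and 19249 in the overexpression-labelled library, and 3 of them were called higher in the last than in empty vector, while 4 (EPCAM, KRT19, CDH1 and CLDN4) were called lower in shDCBLD2 than in sc. For the receptors, which leukocytes carry, myeloid markers were read: 2 to 4 of 12 were above 3 counts, their summed level was 9.92, 4.96, 16.4 and 23.3 CPM in the same order, with PTPRC, S100A8, FCGR3A, FCN1, AIF1 and CSF3R at 0 in every library. Most of each sum was CD14, at 7.36, 3.48, 14.2 and 20.1 CPM. Of 10 fibroblast markers, 8 were above 3 counts in the overexpression-labelled library and 5 or 6 in the others, with summed levels of 82.3 CPM and 38.2 to 59.4 CPM. Of the 4 tested, 2 were called higher in the overexpression-labelled library than in empty vector and 0 lower. The 2 were the collagen genes COL1A2 (67 against 0 counts) and COL3A1 (68 against 6 counts). Against sc, 3 were called higher. The filter was a mean over all 4 libraries, so that counts in the overexpression-labelled library alone could carry a gene past it, and nothing is read from these calls. FAP was at 0 in every library, and DCN, LUM and POSTN were at 0 in all but the overexpression-labelled one. Markers of the embryonic kidney cells in which the lentivirus was made, 8 of 10 above 3 counts in each library and STMN2 and SYT4 at 0, summed to 233 CPM there and to 237 to 419 CPM in the others. The part of these differences in the members' values was not tested.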

How the data were processed

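The submitters made poly(A)-selected libraries from A549 RNA with an Illumina TruSeq RNA kit. The authors deposited raw read counts per gene and FPKM values for 4 libraries, with human Ensembl identifiers. The submitters' processing notes name mm9, a mouse build, which the human identifiers go against. The deposited coordinates are not those of GRCh38.p14 either. ANXA1 starts at 75766673 in them, and its GRCh38.p14 promoter window runs from 73151615 to 73151914. The name of their build, the aligner and the counter are not given in the sources used here. The members and the gene lists were chosen with earlier results of these data known. Some genes of the lists are not reported here. The genes named were the 10 members, other called genes of each list, and the 5 genes nearest in pattern to a member. Counts were scaled by TMM (edgeR 4.0.16 in R 4.3.3), over totals of 16601633 to 21537283. Log2 ratios used a prior count of 2, and their 95% intervals were Clopper-Pearson intervals of the counts (scipy 1.17.1). Genes were called at 2-fold, with an interval leaving out no change, among those with a mean of at least 1 CPM. The floor was 3 counts, 0.139 to 0.182 CPM. A gene with 0 counts was given a fold difference against this floor, which leaves out the counting error of the other library. With 1 library per condition no replicate test was possible. The ratio procedure was tested on simulated counts that held counting error alone, so that test cannot show how far separately made lines differ. FPKM values were used as deposited, to compare levels between genes. Alternatives were DESeq2 1.42.0 size factors, library totals, prior counts of 0.5 and 5, a 1.5-fold threshold, no filter, a filter of 5 CPM, thinned counts, FPKM ratios and the other control library. Promoter sequences came from RefSeq (GRCh38.p14).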

Additional observations from a re-analysis of the deposited data

How the results depend on the processing

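With 1 library per condition, the ratios have no replicate check, leaving out a replicate was not possible, and the depth limits FPR1, FPR2 and ANXA10, whose counts in the overexpression-labelled library were 5, 0 and 15. No paired analysis was possible because each condition has 1 library and the labels carry no replicate numbers. Of 219 member ratios under other settings, 209 kept their sign. The 10 others were ANXA5 under library totals or FPKM (4 values near 0) and, in shDCBLD2 against empty vector in place of sc, ANXA3 (-0.13), ANXA5 (-0.04), ANXA6 (-0.30), ANXA10 (0.56), FPR1 (0.36) and FPR2 (0.57). ANXA1, ANXA10 and FPR1 were called lower in the overexpression-labelled library under each count-based setting run that kept the 2-fold threshold. At 1.5-fold, by construction, more were called: 6 members there (ANXA2, ANXA3 and ANXA4 joining), 1 in shDCBLD2 against sc (ANXA4) and 2 in empty vector against sc (ANXA10 and FPR1). In the order of the 3 comparisons, all genes called numbered 1632, 952 and 573. At 1.5-fold they numbered 4269, 2311 and 1919, with no filter 2871, 1697 and 1117, and at 5 CPM 831, 399 and 180, as more or fewer genes entered. Against the other control library, shDCBLD2 had 1432 calls, and DCBLD2 had log2 ratios of -1.06 for the overexpression-labelled library and -1.14 for shDCBLD2. Scaling and filtering shDCBLD2, sc and empty vector without the overexpression-labelled library, a choice made after seeing the data, left 0 members called in both comparisons among them. Under library totals the DCBLD2 ratio of empty vector to sc was -0.28 in place of -0.21. The causes of these shifts were not tested.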

Other observations

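Among the genes tested that had a RefSeq promoter window, 15 had no CpG in any window, and 4 of them were called lower and 3 called higher in the overexpression-labelled library than in empty vector. 3 of the 4 called lower are FPR1, ANXA10 and ANXA1, which were chosen with their ratios known, so nothing is read from the share. Of the 9691 genes with at least 1 CpG, 496 (5.12%) were called lower and 590 (6.09%) called higher.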
